A study of Bos taurus with 39 samples.

Results

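Denuded bovine oocytes (DO) that matured alone for 6 h were compared with denuded oocytes that matured for 6 h in medium shared with cumulus-oocyte complexes (COCs), the co-culture group (cocult). The comparison holds 6 of the 39 miRNA libraries of the series, 3 labelled Coculture, 6h and 3 labelled Denuded, 6h, matched by replicate number. Both groups had their cumulus cells stripped by vortexing in hyaluronidase before maturation in serum-free TCM-199 with epidermal growth factor. In the co-culture the COCs sat behind a porous membrane insert, so that the oocytes shared soluble factors and small particles with them but had no contact, and after maturation the zona of the denuded oocytes was removed with pronase. No carbenoxolone, the gap junction blocker of the CBX group, was present in either group. Each library was made from pooled oocytes of slaughterhouse ovaries, and the labels do not tie a replicate number to an animal, so that the spread between libraries is a spread between pools. The time point was meant to fall around germinal vesicle breakdown, the first visible step of meiotic resumption.

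An oocyte normally matures inside its cumulus, with which it exchanges small molecules through gap junctions at the tips of transzonal projections. Cumulus cells also send signals through the medium, as secreted proteins and as extracellular vesicles that can carry miRNAs. A miRNA is a short RNA that guides a silencing complex to messenger RNAs, and the bases 2 to 8 from its 5′ end, the seed, do most of the target recognition. In mammalian oocytes transcription ceases around the resumption of meiosis, and in mouse oocytes miRNA-guided repression is known to be weak.

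Counts are given for known miRNAs, listed in miRBase, and for predicted miRNAs, which the authors inferred from their reads with miRPro and numbered. The sequences below are those of the predicted miRNAs on which the comparison turned, with the seed in capitals, because a predicted miRNA is known by its sequence alone. The first pair passed the threshold of the comparison, and the second pair had a small unadjusted p-value in either direction.
predicted miR-432: uGCGGGAUcuuuaguugugg
predicted miR-672: gACCGAAGuggggaaagg
predicted miR-137: uGCCAAUUcaggggacacggguuug
predicted miR-79: uGCAAGAUuuuaagcaugaccuu
On the ARS-UCD1.2 assembly the authors placed the precursor of predicted miR-432 at chr21:21809645-21809752, plus strand, that of predicted miR-672 at chr3:2472195-2472302, plus strand, that of predicted miR-137 at chr13:33386482-33386596, minus strand, and that of predicted miR-79 at chr11:97182562-97182675, minus strand. The 4 seeds differ from each other. Genes and exons at these positions were not analysed here.

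The next sequences are shown because 5 predicted miRNAs of low complexity or near-identical sequence were among those with a log2 fold change below 0 and a small unadjusted p-value.
predicted miR-318-0: gCGCGCCCccgccgcgcg
predicted miR-559: gGCGCGCCcccgccgcgc
predicted miR-895: gCGCCCCCggggccgcgg
predicted miR-484: gGGGGUGUagcucagugg
predicted miR-485: gGGGAUGUagcucagugg
Predicted miR-318-0, predicted miR-559 and predicted miR-895 consist of G and C alone, and the first pair shares a run of 17 bases offset by 1 position, so their seeds differ. Predicted miR-484 and predicted miR-485 differ by G5A, counted from the 5′ end with the base of predicted miR-484 first, which lies inside the seed. Both begin with the letters that begin alanine transfer RNA. Reads from such near copies may have been divided between them by the counting, so their separate values are uncertain.

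The total miRNA counts were 165238, 54069 and 61906 in the co-culture replicates 1, 2 and 3 and 175429, 57094 and 77656 in the DO replicates. Replicate 1 was thus the deepest in both groups. Expressed per 1000000 counts (CPM), the 3 counts that a reading of 0 allows came to 17.1 CPM in the deepest and 55.5 CPM in the shallowest library, counting error alone considered. The spread between replicates exceeded sampling noise in both groups (chi-square over its degrees of freedom 4.31 to 11.1). Known miRNAs took between 37.8% and 43.7% of the counts. No list of oocyte-defining miRNAs was used, so the identity of the cells rests on the labels. The values below are CPM scaled by edgeR's TMM factors over the 6 libraries, called normalised CPM. Fewer cells of a type and less RNA per cell cannot be told apart in such pools.

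The relative miRNA profiles of DO and co-cultured oocytes at 6 h were close. Of 423 miRNAs with enough counts to test (108 known and 315 predicted), 373 (88.2%) had a log2 fold change of DO over co-culture between -0.5 and 0.5, and the median was -0.026. TMM scaling places the fold changes around 0 by design, so this median does not compare total amounts. Library sizes from the deduplicated reads moved it, as given at the end. In edgeR's quasi-likelihood F-test with the replicate number as a block, 2 miRNAs (0.473% of those tested) passed the threshold, set at a Benjamini-Hochberg adjusted p below 0.05 together with a log2 fold change of 1 or more in size. Both were predicted miRNAs that were higher in the DO group (0.473%), and 0 of 423 (0%) were lower. At an unadjusted p under 0.05 the same edgeR test gave 31 lower miRNAs (7.33%) and 6 higher miRNAs (1.42%). Counted once where predicted miRNAs have the same counts in every library, these were 26 and 6. With the block left out of the edgeR model 0 miRNAs passed and 10 had an unadjusted p under 0.05, and DESeq2 with the block also passed 0, with 6 under 0.05.

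**Figure D1:**
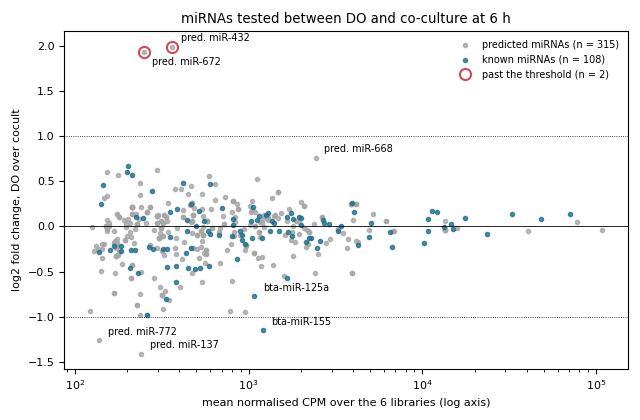
Log2 fold change of DO over cocult at 6 h (vertical axis) against the mean normalised CPM over the 6 libraries (horizontal log axis) for the 423 miRNAs tested, with known miRNAs in blue and predicted miRNAs in grey. The dotted lines mark a log2 fold change of 1 in either direction, and the 2 circled miRNAs passed the threshold. The points narrow towards the abundant miRNAs on the right. Of those beyond the lines, bta-miR-155, with a mean of 1208 CPM, is the most abundant.

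Predicted miR-432 had 11, 6 and 11 counts in the co-culture replicates 1, 2 and 3 and 56, 78 and 7 counts in the respective DO replicates. On the normalised scale these were 67.5, 113 and 193 CPM in the co-culture and 323, 1394 and 95.4 CPM in the DO group. The DO replicates 1 and 2 were above every co-culture library, but DO replicate 3 lay inside the co-culture range, so the groups overlapped. The mean was 124 ± 63.3 CPM in the co-culture and 604 ± 694 CPM in the DO group (SD over the 3 libraries). Fitted by edgeR with the block, the log2 fold change, which is not the ratio of these means, was 1.99 ± 0.44 (SE, edgeR adjusted p = 0.019). This SE, like the others from edgeR, draws on variance shared across miRNAs and does not measure the spread of this miRNA's own pairs.

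Predicted miR-672 had the same shape. It had 5, 9 and 7 counts in the co-culture replicates and 42, 47 and 7 counts in the DO replicates, which were 30.7, 169 and 123 CPM and 242, 840.1 and 95.4 CPM. Again the DO replicates 1 and 2 were above every co-culture library and DO replicate 3 was below 2 of them. The mean was 107 ± 70.5 CPM in the co-culture and 392 ± 394 CPM in the DO group (SD over the 3 libraries). Fitted by edgeR with the block, the log2 fold change, which is not the ratio of these means, was 1.93 ± 0.42 (SE, edgeR adjusted p = 0.019).

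Within replicates 1, 2 and 3 the log2 ratio of DO over co-culture was 2.26, 3.63 and -1.01 for predicted miR-432 and 2.98, 2.31 and -0.36 for predicted miR-672, so both were higher in 2 of 3 pairs. An exact two-sided permutation test of the 6 normalised values, which cannot go below p = 0.1 with 3 libraries against 3, gave p = 0.3 for each. Leaving out replicate 3, the fitted log2 change was 2.90 for predicted miR-432 and 2.60 for predicted miR-672, and 6 miRNAs passed. Leaving out replicate 2, it was 1.16 and 1.71 and neither passed. Leaving out replicate 1, predicted miR-432 was at 1.69 and did not pass, predicted miR-672 fell under the count filter, and 0 miRNAs passed. Keeping only 1 of each set of predicted miRNAs with the same counts moved the adjusted p-value of both to 0.051, just above 0.05.

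**Figure D2:**
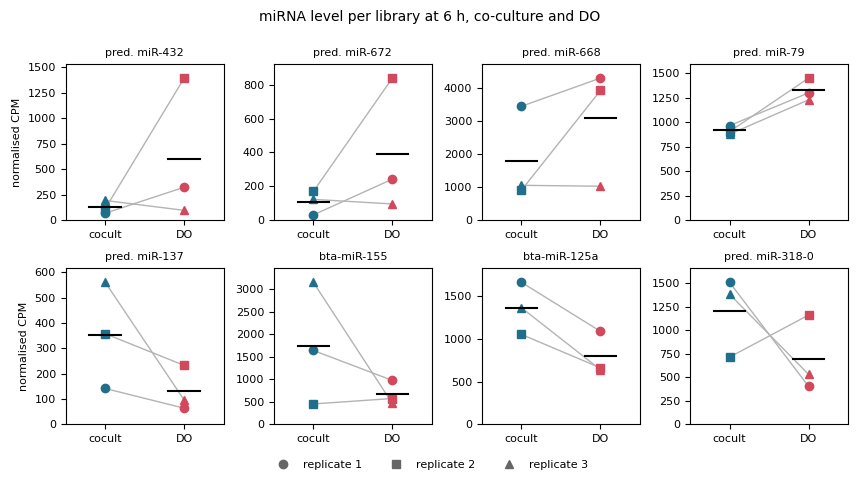
Normalised CPM in each library (vertical axes, from 0) for 8 miRNAs in the co-culture (blue) and DO (red) groups at 6 h. A marker shape stands for a replicate number, grey lines join the libraries with that number and black bars are group means (n = 3). In predicted miR-432 and predicted miR-672 the replicate 3 line runs level or downward while the other lines climb.

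Of the other miRNAs with the smallest p-values on the DO side, none passed the threshold. Predicted miR-668 had 560, 48 and 60 counts in the co-culture and 744, 219 and 75 in the DO libraries, which makes 3438, 903 and 1050.4 CPM against 4288, 3914 and 1022 CPM. Most of the difference came from replicate 2, where the DO library was the higher by a log2 ratio of 2.12, and the groups overlapped. The log2 fold change was 0.76 ± 0.26 (SE, edgeR adjusted p = 0.23). Without replicate 3 it was 1.12 and passed.

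Predicted miR-79 differed by less but in every pair. It was at 964, 903 and 875 CPM in the co-culture replicates and at 1297, 1448 and 1226 CPM in the DO replicates. Every DO library was above every co-culture library, the means were 914 ± 45.3 and 1324 ± 113 CPM (SD, n = 3 per group), and the exact permutation test gave p = 0.1, the smallest it can give. The log2 fold change was 0.52 with a 95% interval of 0.085 to 0.96 and an adjusted p of 0.42 by edgeR.

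Predicted miR-883 and predicted miR-940 were likewise higher in every DO library than in any co-culture library, at log2 fold changes of 0.63 and 0.38 and adjusted p-values of 0.49 and 0.68 by edgeR. Predicted miR-712 (0.56, adjusted p = 0.49) and predicted miR-716 (0.47, adjusted p = 0.68) were higher in 3 of 3 pairs by the same edgeR test, with overlapping groups. In all, 17 of the tested miRNAs (4.02%) were higher in every DO library than in any co-culture library and 16 (3.78%) were lower. Such a separation, in either direction, has p = 0.1 by the exact permutation test. That test treats the 6 libraries as exchangeable and leaves out the pairing, and the miRNAs tested are not independent. It therefore sets no chance share against which to hold the 4.02% and 3.78%. Separation by itself is not read as evidence of a difference. The known miRNAs among the 17 were bta-miR-34a, which is induced by p53, bta-miR-192 and bta-miR-200a, and among the 16 bta-miR-361. These were named after their values were seen. For bta-miR-34a the co-culture libraries were at 479, 545 and 490.2 CPM and the DO libraries at 657, 589.8 and 858 CPM. For bta-miR-361 they were at 571, 451 and 700.3 CPM and 444, 411 and 368 CPM. The separation of bta-miR-34a is narrow, with the nearest libraries of the groups at 545 and 589.8 CPM.

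Predicted miR-137 led the miRNAs that were lower in the DO group, none of which passed the threshold. It had 23, 19 and 32 counts in the co-culture replicates and 11, 13 and 7 counts in the DO libraries, which makes 141, 357 and 560.2 CPM against 63.4, 232 and 95.4 CPM. It was lower in 3 of 3 pairs, most in replicate 3, although the groups overlapped because the co-culture replicate 1 was low. The log2 fold change was -1.41 ± 0.36 (SE, 95% interval -2.15 to -0.67, adjusted p = 0.075 by edgeR). It passed with no low-count filter (adjusted p = 0.025) and when the test was run on the 326 miRNAs of the shorter count table in the supplement (adjusted p = 0.022), both by edgeR, and in none of the other alternatives, where the adjusted p reached 1.00. Without replicate 3 the fold change was -0.85.

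Known miRNAs came next. bta-miR-155, which is induced in activated immune cells, was at 1639, 451 and 3151 CPM in the co-culture replicates and at 974, 572 and 463 CPM in the DO replicates. The co-culture replicates 1 and 3 were well above the rest and the co-culture replicate 2 was the lowest of all 6, so 2 of 3 pairs were lower in the DO group. The log2 fold change was -1.15 ± 0.32 (SE, edgeR adjusted p = 0.12), and it passed without the low-count filter and on the shorter table, with adjusted p = 0.0012 in both. It passed in none of the other alternatives, over all of which the edgeR or DESeq2 adjusted p ranged from 0.0012 to 1.00. The log2 ratios of the pairs were -0.75, 0.34 and -2.77, and without replicate 3 the fold change was -0.35.

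bta-miR-125a, a relative of the developmental timing miRNA lin-4, was at 1664, 1053 and 1366 CPM in the co-culture and at 1089, 661 and 640.4 CPM in the DO replicates. It was lower in the DO library of every pair, with log2 ratios of -0.61, -0.67 and -1.09. The groups overlapped by the DO replicate 1, which at 1089 CPM stood just above the co-culture replicate 2. The log2 fold change was -0.78 ± 0.22 (SE, edgeR adjusted p = 0.12).

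Among the predicted miRNAs, predicted miR-771, predicted miR-772 and predicted miR-631 were lower in every DO library than in any co-culture library. Such separation was seen for 3.78% of all miRNAs tested and is not read as evidence by itself. Predicted miR-771 was at 429.8, 470.1 and 368 CPM against 242, 197 and 218 CPM (log2 fold change -0.91, adjusted p = 0.19 by edgeR). Predicted miR-772, with 27, 9 and 15 counts against 15, 6 and 3, had a log2 fold change of -1.26 and predicted miR-631 one of -0.98, with adjusted p-values of 0.19 and 0.20 by edgeR. Counts were low for both, and neither passed in any of the alternatives run.

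**Figure D3:**
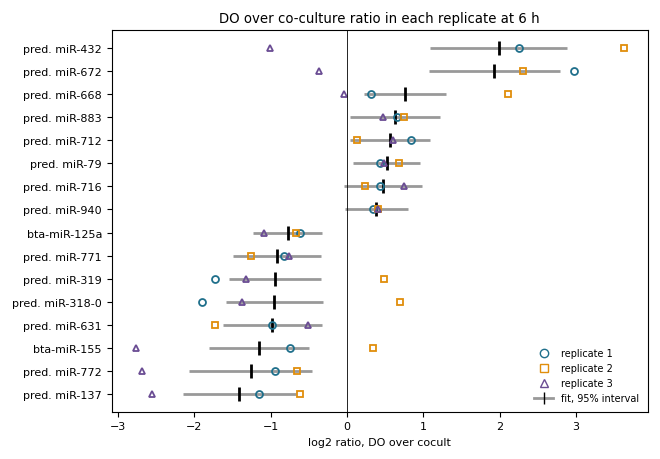
Log2 ratio of DO over cocult (horizontal axis) within replicates 1, 2 and 3 (open symbols) for 16 miRNAs, the 8 with the smallest p-values in each direction, with the fitted log2 fold change (black tick) and its 95% interval (grey line). For predicted miR-432, predicted miR-672 and predicted miR-668 the replicate 3 symbol lies left of 0, while for predicted miR-318-0, predicted miR-319 and bta-miR-155 the replicate 2 symbol lies right of 0.

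The first pair of GC-only predicted miRNAs shown above had a shared pattern over the libraries. Predicted miR-318-0 was at 1510.3, 715 and 1383 CPM in the co-culture and at 403, 1162 and 531 CPM in the DO replicates, with a log2 fold change of -0.95 ± 0.31 (SE, edgeR adjusted p = 0.20). It was lower in the DO group in replicates 1 and 3 and higher in replicate 2. Predicted miR-559, which shares its long run of bases and has the same counts as 1 other predicted miRNA, was at 6299, 3216 and 4254 CPM against 2230.3, 4629 and 3038 CPM, again lower in replicates 1 and 3 only, with a log2 fold change of -0.51 and an adjusted p of 0.49 by edgeR. Predicted miR-319, for which no sequence was used here, had log2 ratios of -1.73, 0.48 and -1.32 in the 3 pairs and a fitted change of -0.94 (edgeR adjusted p = 0.19). Without replicate 2, predicted miR-318-0 and predicted miR-319 passed the threshold, with log2 fold changes of -1.64 and -1.52.

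Predicted miR-895, the remaining GC-only miRNA, was lower in DO than in co-cultured oocytes in every pair on the normalised scale, at 172, 451 and 315 CPM against 69.2, 179 and 245 CPM. The counts of replicate 3 were equal, at 18 in each library. Its log2 fold change was -0.98 ± 0.33 (SE, edgeR adjusted p = 0.22). The pair that differs by G5A had 38, 34 and 20 counts against 29, 19 and 13 for predicted miR-484, whose counts are the same as those of 2 other predicted miRNAs, while predicted miR-485 was at 1007, 3573 and 1295 CPM against 657, 1626 and 1431 CPM. The co-culture replicate 2 was the highest library for both on the normalised scale. Their log2 fold changes were -0.76 and -0.55, with adjusted p-values of 0.36 and 0.42 by edgeR. Of 18 predicted miRNAs with a listed sequence, 17 passed the count filter. Predicted miR-364 did not, with 13, 8 and 1 counts against 8, 7 and 5. At an unadjusted p under 0.05 by edgeR, 6 of the 17 were lower in the DO group and 3 were higher, against 7.33% and 1.42% of all miRNAs tested. The rest included predicted miR-879 at a log2 fold change of 0.48, predicted miR-824 at -0.36 and predicted miR-457 at 0.26, with edgeR adjusted p-values of 0.94, 0.94 and 0.97. That list was drawn up from comparisons that include these libraries, so it is no independent evidence.

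The miRNAs that an oocyte held in the largest amounts were at similar relative levels in both groups. The 10 most abundant known and 5 most abundant predicted miRNAs took between 46.9% and 51.7% of the counts of a library. Their log2 fold changes lay between -0.083 and 0.17, and their 95% intervals together reached from -0.42 to 0.51. These values depend on the scaling. With library sizes from the deduplicated reads bta-let-7a-5p was at 0.165 and bta-miR-26a at 0.42. All 15 overlapped between the groups. A difference smaller than these intervals was not detectable with 3 libraries per group.

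The most abundant known miRNA, bta-miR-16b, whose family restrains cell cycle genes, was at 58127, 62883 and 82595 CPM in the co-culture replicates and at 71146, 71780.0 and 78518 CPM in the DO replicates. bta-miR-10b, which lies in a Hox gene cluster, was at 48071, 44379 and 47109.8 CPM against 48859.9, 51815 and 46814 CPM. bta-miR-148a followed at 31343 ± 7878 against 33988 ± 5535 CPM (SD, n = 3 per group). The co-culture replicate 3 held the lowest bta-miR-148a and the highest bta-miR-16b of the 6 libraries, and for both miRNAs the SD of the co-culture replicates exceeded the difference between the group means.

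bta-let-7a-5p was at 24671 ± 8567 against 22404 ± 2706 CPM, and bta-miR-122, the dominant miRNA of liver, at 15604 ± 7880.2 against 14260.1 ± 4334 CPM (SD, n = 3 per group). bta-miR-122 varied more between replicate numbers than between groups, from 7422, 16247 and 23144 CPM in the co-culture to 9307, 17355 and 16118 CPM in the DO replicates. The remaining abundant known miRNAs were bta-miR-16a, bta-let-7f, bta-miR-7, bta-miR-30d and bta-miR-26a, each between 10772 and 18118 CPM in the group means. The highest level of all was that of predicted miR-212, at 110008 ± 7764 CPM in the co-culture and 107054 ± 10267 CPM in the DO group (SD over the 3 libraries). Predicted miR-787, predicted miR-777, predicted miR-322 and predicted miR-304 followed, and each differed by less than its replicate spread.

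bta-miR-21-5p, which supports granulosa cell survival, was at 5538, 3084 and 2346 CPM in the co-culture and at 4547, 4862 and 3215 CPM in the DO replicates, with a log2 fold change of 0.25 (95% interval -0.15 to 0.66, adjusted p = 0.96 by edgeR).

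Known miRNAs were also grouped by family and by the cells they are known from. In each list 0 members passed the threshold in either direction. The let-7 family, which regulates developmental timing, had 8 tested members of 10, of which 7 had a log2 fold change below 0, with a median of -0.22 against -0.026 over all miRNAs tested. bta-let-7b was its lowest, at 408, 54 and 145 counts against 273, 59 and 95 and a log2 fold change of -0.57 (adjusted p = 0.36 by edgeR), lower in 2 of 3 pairs. The summed family was at 42266, 53672 and 68491 CPM in the co-culture and 48304, 51827 and 53634 CPM in the DO replicates, without TMM scaling as for all summed lists, and went in different directions in replicates 1 and 3.

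The related miR-10, miR-99/100 and miR-125 families had 5 tested members of 8 with a median log2 fold change of -0.47. Besides bta-miR-125a, bta-miR-10a was low in the DO group at an unadjusted p under 0.05 by edgeR, with 47, 21 and 33 counts against 31, 23 and 11 and a log2 fold change of -0.81 (adjusted p = 0.37 by edgeR). These were 2 of the 5 tested, on the side where 7.33% of all miRNAs tested lay, and with so few members no family change is read from them. The more abundant bta-miR-125b was at 3392 ± 333 against 3438 ± 628 CPM (SD, n = 3 per group). The summed families were at 50177 CPM in the co-culture and 52399 CPM in the DO group on average.

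The other families lay nearer to 0. The median log2 fold change was -0.16 over 9 tested members of the proliferation-linked miR-17-92 and related clusters, 0.040 over 5 of the miR-30 family and 0.032 over 8 of the miR-15, miR-16 and miR-195 family. It was 0.12 over 4 of the miR-26 and miR-29 families, 0.14 over 4 of the miR-23, miR-24 and miR-27 clusters and 0.0077 over 6 of the miR-148, miR-152 and miR-200 families. None of these 6 lists held a member with an unadjusted p under 0.05 by edgeR. The miR-2284 and miR-2285 family, which is expanded in ruminants, with 148 deposited members, had 32 detected and 2 tested members, and entries resembling other small RNAs had 2 tested members of 14, with a median of 0.022.

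**Figure D4:**
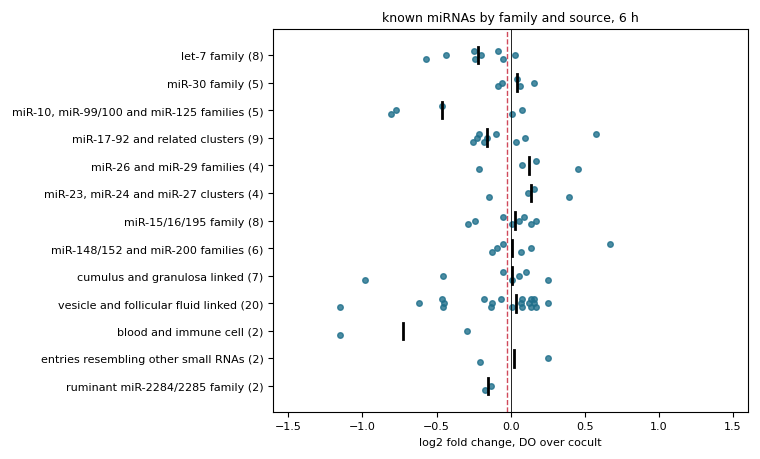
Log2 fold change of DO over cocult at 6 h (horizontal axis) for the tested members (points, with their number in brackets) of each list of known miRNAs. Black bars are list medians, the solid line marks 0 and the red dashed line the median of all miRNAs tested (-0.026), and 10 of the 13 list medians lie within 0.2 of 0.

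miRNAs linked to the cells that the co-cultured oocytes shared medium with overlapped between the groups in their summed level. The cumulus and granulosa linked list had 20 of 22 members detected, 7 tested and a median log2 fold change of 0.0070. Its summed level was between 7786 and 12630.3 CPM in the co-culture and between 8666 and 11207 CPM in the DO group. Of the 7, 1 had an unadjusted p under 0.05 by edgeR, on the lower side, where 7.33% of all miRNAs tested lay. It was bta-miR-199a-3p, a miRNA of stromal and mesenchymal cells, with 106, 8 and 13 counts against 48, 10 and 6 and a log2 fold change of -0.98 (adjusted p = 0.22 by edgeR). The co-culture replicate 1 held most of the co-culture counts, and the DO library was the lower one in 2 of 3 pairs.

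Of miRNAs linked to extracellular vesicles and follicular fluid, all 26 were detected and 20 were tested, with a median of 0.036. Of the 20, bta-miR-155 and bta-miR-186 had an unadjusted p under 0.05 by edgeR, both lower in the DO group as were 7.33% of all miRNAs tested, with adjusted p-values of 0.12 and 0.48. bta-miR-186 had a log2 fold change of -0.62 and was lower in 3 of 3 pairs. The summed level of the list was 201957, 187205 and 206313 CPM in the co-culture and 218065, 205626 and 209707 CPM in the DO replicates, and an exact permutation test gave p = 0.2. Early embryo miRNAs had 1 detected member of 6, bta-miR-302b, with 1 count in all.

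The blood and muscle miRNAs with the most uneven counts were each carried by a single library. The myeloid miRNA bta-miR-223 had 1, 0 and 2 counts in the co-culture and 1, 155 and 0 in the DO replicates, so that 1 library held nearly all of it. That library also held 10 of the 12 counts of bta-miR-142-5p, another miRNA of blood cells. The skeletal muscle miRNA bta-miR-206 had 29, 181 and 5 counts in the co-culture and 7, 5 and 8 in the DO replicates, with the co-culture replicate 2 far above the rest. Both failed the count filter, and with a filter on the mean count instead they were the only miRNAs that passed, with log2 fold changes of 5.18 and -3.00.

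Over the blood and immune list as a whole, 8 of 10 members were detected and 2 tested, bta-miR-155 and bta-miR-150, the latter a miRNA of lymphocytes at 494 ± 116 against 377 ± 37.5 CPM (SD, n = 3 per group). The erythrocyte miRNA bta-miR-451 had 1 count in all, and bta-miR-144 and bta-miR-142-3p were at 0. The summed level was 2124, 925 and 3602 CPM in the co-culture and 1471, 3888 and 889 CPM in the DO replicates. Over the muscle list 4 of 8 members were detected and 0 were tested. Its summed level was 254, 3366 and 113 CPM in the co-culture and 103, 193 and 206 CPM in the DO replicates, with bta-miR-1 at 2, 0 and 0 counts against 4, 3 and 5, bta-miR-133a at 1 count against 2 in all, and bta-miR-133b, bta-miR-133c, bta-miR-208a and bta-miR-208b at 0. Outside this contrast bta-miR-206 was high in control replicate 2, with 296 counts at 1 h, 610 at 6 h and 172 at 22 h. DO replicate 2, the library with bta-miR-223, was also the highest library for predicted miR-432 and predicted miR-672. The part of such cells in the results was not tested.

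A few miRNAs had counts in all 3 libraries of 1 group and 0 in the other. bta-miR-196a, which lies in the Hox gene clusters, had 0 counts in each co-culture library and 5, 2 and 2 in the DO replicates, and predicted miR-477 had 0 against 3, 1 and 1. In the other direction bta-miR-2284j had 2, 1 and 3 counts in the co-culture, bta-miR-2284m 3, 1 and 1 and bta-miR-299 1, 1 and 2, each with 0 in the DO libraries. These counts were at or near the floor of 3 counts a library, so no fold is given and a difference was not detectable at this depth.

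For reference, the levels of the leading miRNAs were taken from all 4 groups and 3 times after TMM scaling over 36 libraries. At 6 h, predicted miR-432 was at 691, 437 and 439 CPM in the control group, in which oocytes matured inside their COCs, and at 110.5, 430.0 and 288 CPM in the CBX group. On that scale the co-culture libraries were at 65.8, 109 and 194 CPM and were the lowest of the 4 groups by their mean. Predicted miR-672 was at 106, 249.7 and 130.0 CPM in the control and 62.1, 287 and 169.5 CPM in the CBX group. The DO replicates 1 and 2 at 247 and 813 CPM stood at the upper end of that range or above it. High single libraries of both miRNAs were not limited to this contrast. At 22 h, CBX replicate 2 was at 3746 CPM for predicted miR-432 and at 2328 CPM for predicted miR-672, the highest of all 36 libraries for each.

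Predicted miR-137 was at 211 ± 2.33 CPM in the control and at 291 ± 229 CPM in the CBX group, against 349 ± 214 CPM in the co-culture and 129 ± 84.9 CPM in the DO group (SD over the 3 libraries). bta-miR-155 was at 2819 ± 1140.3 CPM in the control, 1786 ± 1469 CPM in the CBX, 1738 ± 1379 CPM in the co-culture and 672 ± 283 CPM in the DO group. The DO group thus had the lowest mean of both miRNAs at 6 h. These values are a description, and the groups were not tested against each other here.

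**Figure D5:**
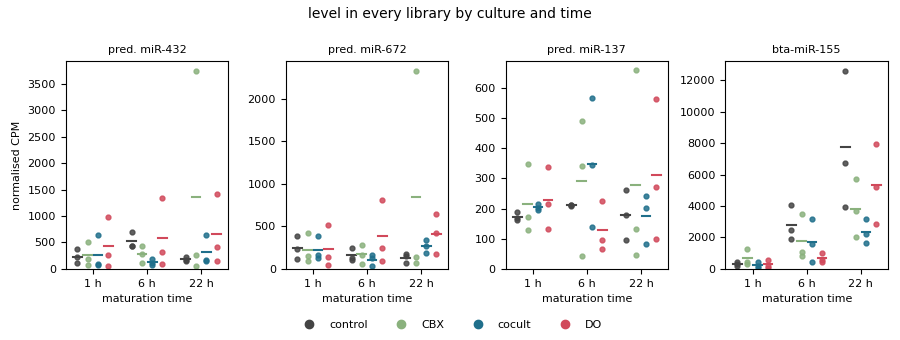
Normalised CPM over 36 libraries (vertical axes, from 0) of 4 miRNAs at 1, 6 and 22 h in the control, CBX, cocult and DO groups, with a point for each library and a bar for the mean of 3. For predicted miR-432 and predicted miR-672 single libraries lie far above the rest at more than 1 time, and the mean of bta-miR-155 is at its highest at 22 h in every group.

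The same contrast was made at 1 h and 22 h, each on 6 other libraries. By edgeR 0 of 465 miRNAs (0%) passed at 1 h and 0 of 420 (0%) at 22 h, with 22 and 30 at an unadjusted p under 0.05. For predicted miR-432 the log2 fold change of DO over co-culture was 0.73 (standard error 0.44) at 1 h and 1.03 (standard error 0.67) at 22 h. For predicted miR-672 it was -0.18 (standard error 0.43) at 1 h and 0.67 (standard error 0.41) at 22 h. The difference of 6 h minus 1 h was 1.15 (standard error 0.92) for predicted miR-432, with an unadjusted p of 0.23 by edgeR's interaction term. For predicted miR-672 it was 2.03 (standard error 0.71), with an unadjusted p of 0.014 by the same test. The differences of 6 h minus 22 h were 0.64 (standard error 1.29) and 1.13 (standard error 0.92). After adjustment neither miRNA differed detectably between times. The adjusted p-values by edgeR's interaction term were 0.98 and 0.98 for 6 h minus 1 h and 0.93 and 0.80 for 6 h minus 22 h.

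The interaction was tested over all miRNAs with enough counts in the 12 libraries. Between 6 h and 1 h, 0 of 516 miRNAs (0%) passed, with a smallest adjusted p of 0.98 and 19 at an unadjusted p under 0.05 by edgeR. Between 6 h and 22 h, 0 of 469 (0%) passed, with a smallest adjusted p of 0.28 and 38 at an unadjusted p under 0.05 by edgeR.

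The smallest p of the later difference was that of predicted miR-895, with a log2 fold change below 0 at 6 h and above 0 at 22 h (log2 fold change 1.21, standard error 0.29), a difference of -2.25 (standard error 0.46, edgeR adjusted p = 0.28). Predicted miR-137 had a log2 fold change of 0.74 at 22 h and a difference of -2.24 (standard error 0.54, edgeR adjusted p = 0.34). bta-miR-206, the last of the 3 named for this difference, had a difference of -5.78 (standard error 1.53, edgeR adjusted p = 0.34), to which the co-culture replicate 2 at 6 h contributed 181 counts.

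For the earlier difference the 3 smallest p-values were those of predicted miR-883, predicted miR-620 and bta-miR-532, each with an edgeR adjusted p of 0.98 and with differences of 1.15, -1.29 and 1.36. Predicted miR-79 was higher in the DO group at all 3 times, with log2 fold changes of 1.51 (adjusted p = 0.59) at 1 h, 0.52 at 6 h and 1.21 (adjusted p = 0.059) at 22 h by edgeR, none of which passed.

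The ratios of the 3 pairs, which share no library, were weakly related. Across the 423 miRNAs tested, which are not independent replicates, the log2 ratios of pairs 1 and 2 had a Pearson correlation of 0.077, those of pairs 1 and 3 of 0.18 and those of pairs 2 and 3 of -0.13. All 3 pairs were higher in the DO group for 43 of the 423 miRNAs and lower for 58. Among the 31 miRNAs lower at an unadjusted p under 0.05, 18 were lower in all 3 pairs and 7 did not overlap between groups, while of the 6 higher ones 3 were higher in all 3 pairs and 2 did not overlap. Those miRNAs were picked by p-values from the same libraries, so their agreement between pairs is partly built in and is no separate evidence.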

How the data were processed

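MicroRNA libraries of bovine oocytes were analysed as deposited counts. Per the labels and the study's methods, total RNA was extracted with the miRNeasy kit and libraries were made with the QIAseq miRNA kit, whose unique molecular identifiers mark PCR duplicates. The authors trimmed and deduplicated the reads, aligned them to ARS-UCD1.2 and counted them per mature miRNA of miRBase and per miRNA predicted by miRPro, so the deposited values are whole-number counts without normalization. The submitters' processing notes name FastQC 0.11.9 and UMI-tools 1.1.2. How reads shared between near-identical miRNAs were counted is not given in the sources used here.

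Counts of 1030 known and 965 predicted miRNAs were joined, and 1253 had a count in the 6 libraries. edgeR 4.0.16 (limma 3.58.1, R 4.3.3, edgeR 3 behaviour of the quasi-likelihood fit) was run with filterByExpr (minimum count 10, minimum total 15), TMM factors, a block for the replicate number and p-values adjusted after Benjamini and Hochberg. The block stands for the ovary pool that the study's methods enter as batch. A miRNA passed when its adjusted p was below 0.05 and its log2 fold change was 1 or more in size. A standard error is the size of the log2 fold change over the square root of F. Single miRNAs were compared with an exact two-sided permutation test, which left out the replicate number. The procedure was also run on simulated counts that had the same dispersion for every miRNA and replicate effects shared in full within a pair. Single high libraries like those seen here were not simulated, so that run does not bear on them. DESeq2 1.42.0 and the other alternatives are described with their effects. Named were the miRNAs past the threshold, the 8 smallest p in each direction, the predicted miRNAs with a sequence in the supplement, bta-miR-206 and bta-miR-21-5p, the 10 and 5 most abundant known and predicted miRNAs, the 3 most abundant of each list, those present in 1 group only and the 3 smallest p of each time difference, with exceptions marked in the text. The members and lists were chosen with earlier results of these data known. Total counts ranged from 54069 to 175429 per library, and the precision is limited by 3 libraries per group.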

Additional observations from a re-analysis of the deposited data

How the results depend on the processing

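The number of miRNAs past the threshold was 2 with all libraries. It was 2 with DESeq2 size factors, with library sizes alone and with library sizes from the deduplicated reads. It was also 2 with a filter on a mean of 20 counts and at an adjusted p under 0.05 alone. However, the filter on the mean passed bta-miR-206 and bta-miR-223 in place of the pair. Predicted miR-432 was tested there and did not pass, while predicted miR-672 fell under that filter. Scaling by deduplicated reads passed bta-miR-206 in place of predicted miR-672, which then fell under the count filter. The number past the threshold was 0 without the replicate block, with DESeq2, with the robust option and with known and predicted miRNAs treated separately. It was also 0 with identical counts kept once and in a fit over the 12 libraries at 6 h. It was 8 with no low-count filter and 4 among the miRNAs of the shorter count table in the supplement, where bta-miR-155 and predicted miR-137 joined the pair. Leaving out each replicate gave between 0 and 6, namely 0 without replicate 1, 2 without replicate 2 and 6 without replicate 3, among them bta-miR-206, bta-miR-184 and predicted miR-919. Scaling by deduplicated reads moved the median log2 fold change by 0.24. The adjusted p of predicted miR-432 ranged from 1.3e-09 to 1.00 over 15 alternatives and that of predicted miR-672 from 3.8e-06 to 1.00 over 12, and the cause was not tested.

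Same-numbered libraries deviated from their group means with correlations of 0.68, 0.41 and 0.049 over the miRNAs tested, so the replicate block rests on the study's methods, and the data do not show the pairing for replicate 3. Without the block, 10 miRNAs had an unadjusted p under 0.05 by edgeR, against 37 with it.

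The differences between times stayed at 0 calls under every alternative run, except that leaving out replicate 1 gave 1 call between 6 h and 1 h, so leaving out each replicate gave between 0 and 1 for that difference. Of 28 miRNAs whose fold change the text gives, 3 changed sign in an alternative, each by leaving out a replicate. Leaving out each replicate in turn gave between -0.0657 and 0.61 for predicted miR-457, between -0.98 and 0.017 for predicted miR-559, and between -0.036 and 0.95 for predicted miR-879. Of 642 recomputed values for 43 other miRNAs under the naming rule, 71 changed sign, 22 of them under the scaling by deduplicated reads and 29 by leaving out a replicate, and every such miRNA had an absolute log2 fold change of at most 0.25.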
